A study of Homo sapiens with 15 samples.

Results

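Described here are 60 protein-coding genes that were higher in every day 9 library than in the libraries of any other sampled day of the differentiation of H1 cells, a line of human embryonic stem cells, towards cardiovascular progenitors and heart muscle cells. The members were chosen by their day 9 values. Counts were scaled so that every library has the same total (CPM). Coding genes whose day 9 mean reached 5 CPM, leaving out ISL1, PDGFRA and MESP1, were ranked by the lowest of the 3 day 9 libraries plus 1 over the highest of the 12 other libraries plus 1. Of 48777 genes in the count table, 18894 were coding and 11590 were eligible, and the 60 with the highest ratio were kept. For these genes every statement that sets day 9 against another day therefore describes the choice and carries no test, and tests are given only between days that exclude day 9.

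The study asked how gene expression changed as the cells moved from pluripotency to a progenitor stage. H1 cells were grown on the laminins LN-521 and LN-221 and sampled on days 0, 4, 9, 11 and 20, with 3 libraries per day labelled as biological replicates, 15 in all. Day 0 was the undifferentiated state in Nutristem medium, and later media held B27 without insulin, a pulse of CHIR99021 (a GSK3 inhibitor that switches Wnt signalling on) and then IWP2 (which blocks the secretion of Wnt proteins), with complete B-27 from day 11. The labels give 2 schedules: under the first, CHIR99021 was added at confluence on day 4 and IWP2 on day 7, and under the other CHIR99021 was present on days 1 and 3 and IWP2 on day 5. The methods list day 7 where the labels have day 9, the deposited sample table gives LN-521 alone for day 0, all libraries come from 1 cell line, and the sources do not say what a shared plate number means.

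Cells that leave pluripotency towards the heart first form primitive streak and mesoderm under Wnt, BMP and Nodal signals, and cardiac progenitors arise from lateral mesoderm once the Wnt signal falls. Progenitors are a passing state: they are known by transcription factors and surface receptors that are switched on for a short time and then give way to the genes of the contractile apparatus. Signals such as FGF10, receptors that tune the Wnt response such as LGR4 and LGR5, and homeodomain factors such as MEIS1 and MSX2 are known from the embryonic regions that feed the growing heart tube, from limb and from endoderm. Many of these genes are made in several tissues, and in bulk RNA a smaller number of cells of one type and less RNA per cell cannot be told apart.

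The libraries held 11990302 to 33469703 counted reads. The summed level of 7 pluripotency markers lay between 5286 and 5791 CPM on day 0 and between 1853 and 2297 CPM on day 9. Most of the day 9 sum was LIN28A, at 1576 to 2030 CPM, against 2713 to 2736 CPM on day 0. POU5F1 went from 868 to 1114 CPM on day 0 down to 45.9 to 100 CPM, SOX2 from 434 to 655 CPM down to 2.57 to 16.4 CPM, and ZFP42 from 184 to 281 CPM down to 80.9 to 110 CPM. The sum of 6 cardiomyocyte markers lay between 254 and 1061 CPM on day 9 and between 6238 and 29010 CPM on day 11. Replicate 2 of day 20 stood apart, with 48230 genes counted against 30886 to 39551 in the other libraries and an RNA integrity number of 6.1. It held the highest value outside day 9 for 6 of the 60 genes, and 49 of the 60 were chosen again when it was left out.

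The 60 genes together made up 10415, 9011 and 12497 CPM in the 3 day 9 libraries. On day 0 the same sum lay between 1791 and 2367 CPM, on day 4 between 2356 and 2439 CPM, on day 11 between 3975 and 4713 CPM and on day 20 between 1980 and 2229 CPM. The ratio that ranked them ran from 4.31 for NOS2 to 1.28 for TMEM185A, with a median of 1.49, and 13 genes reached at least 2. The genes just inside the limit were SMAGP (1.30), CCKBR (1.28) and TMEM185A (1.28), and those just outside were PPFIBP1 (1.28), TKFC (1.28), TOMM7 (1.28), GSTM1 (1.27) and KLF8 (1.27), so the limit falls within a continuous run of values. In all, 426 of the 11590 eligible genes (3.68%) had every day 9 library above the 12 others. By the same count 156 coding genes stood highest on day 0, 106 on day 4, 111 on day 11 and 922 on day 20.

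**Figure D1:**
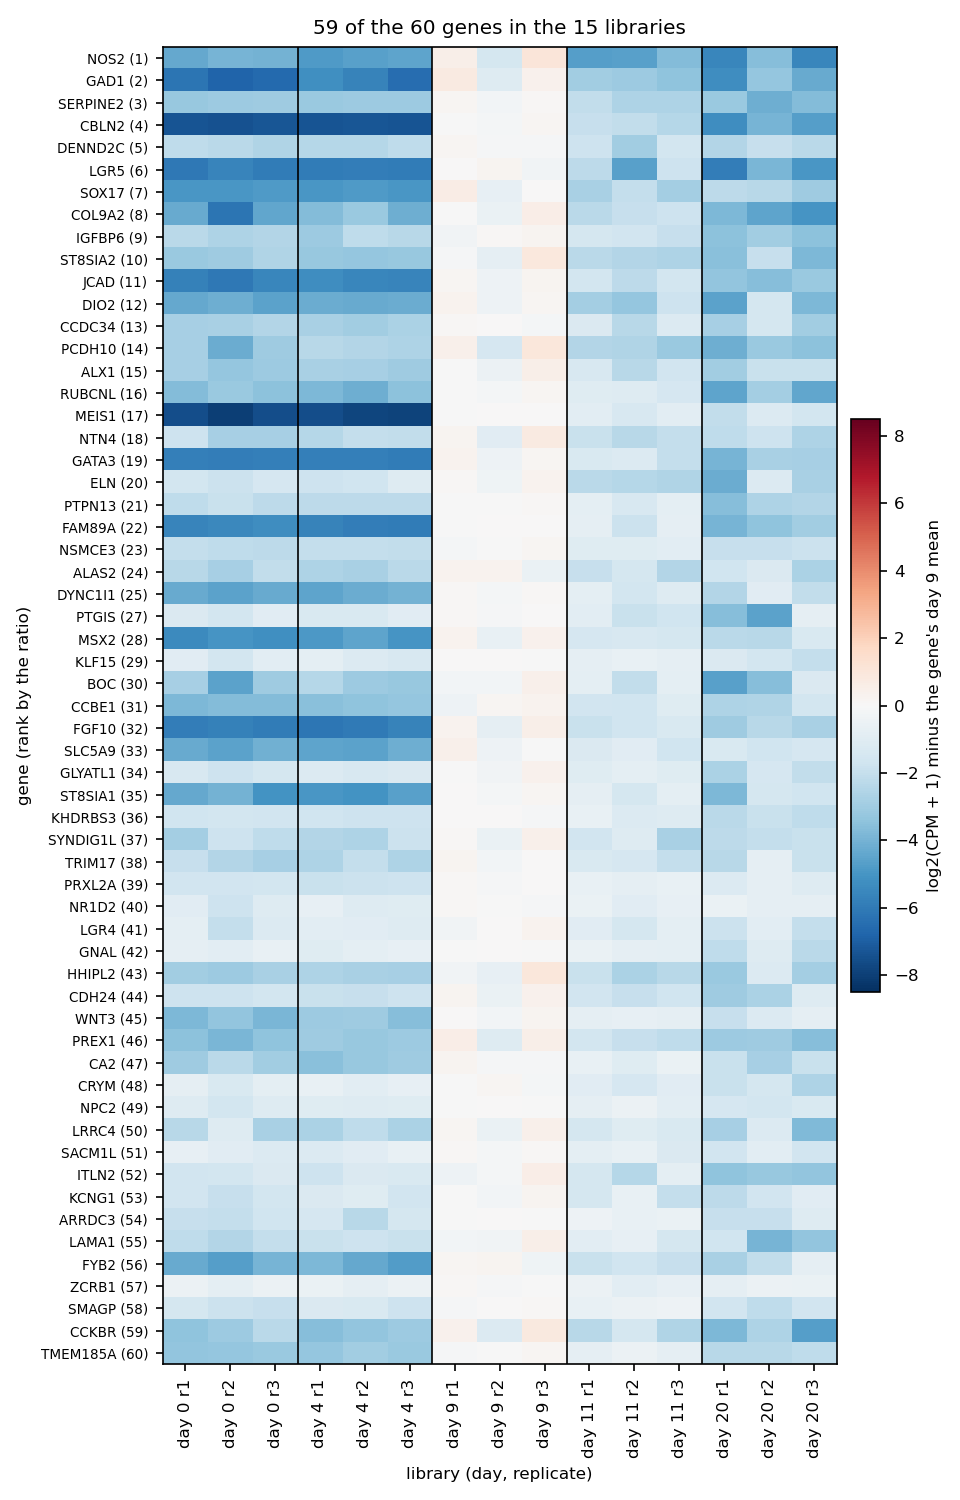
Levels of 59 of the genes (rows, in order of the ranking ratio) in the 15 libraries (columns, by day and replicate), as log2(CPM + 1) minus the gene's mean over the 3 day 9 libraries. Colours near white are close to the day 9 level and darker blue is lower. Columns of days 0 and 4 are darkest for genes such as MEIS1, CBLN2 and GATA3, and day 11 columns are paler than those of days 0 and 4 for most genes.

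The genes differed in where they came from. A set of 11 genes (CBLN2, LGR5, SOX17, DIO2, ALX1, MEIS1, GATA3, MSX2, FGF10, SLC5A9 and HHIPL2) had means under 1 CPM on days 0 and 4, with no library of those days above 1.27 CPM, and no day 9 library under 5.23 CPM. At the other end, 35 genes already had at least 5 CPM on both of these days, among them SERPINE2, LAMA1, LGR4 and PTPN13, and 14 lay between. The median fold of day 9 over day 4, on CPM + 1, was 32.5 in the first set, 12.3 in the middle set and 3.74 in the third. On day 11 the median gene of the first set kept 22.1% of its day 9 level, that of the middle set 28.5% and that of the third 43.5%. Over all 60 genes the median kept was 36.4% on day 11 and 20.0% on day 20, against 96.4% and 91.9% over the eligible genes, and 24 of the 60 had a lower mean on day 20 than on day 0. The genes used in each set were grouped by their own values, so these medians describe the choice.

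For GAD1, GATA3 and MSX2, which were low on days 0 and 4 and high on day 9, the 250 bases before a RefSeq transcription start (GRCh38.p14, gene strand) are shown because they carry the motif letters searched for. Capitals mark AGATAA (bound by GATA factors), TTCAAAG (by TCF and LEF), AGGTGT (T-box), CACCTG (E-box), CAGCTG (E-box), TAATTA (homeodomain), GGCGCC (BMP SMAD) and TATAAA (the core of the TATA box), each searched on both strands.
GAD1 (chr2:170816637-170816886, + strand): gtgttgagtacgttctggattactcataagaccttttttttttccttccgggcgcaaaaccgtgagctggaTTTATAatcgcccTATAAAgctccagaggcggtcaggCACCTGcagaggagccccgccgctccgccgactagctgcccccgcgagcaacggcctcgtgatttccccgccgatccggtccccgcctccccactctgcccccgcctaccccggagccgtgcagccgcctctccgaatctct
GATA3 (chr10:8045083-8045332, + strand): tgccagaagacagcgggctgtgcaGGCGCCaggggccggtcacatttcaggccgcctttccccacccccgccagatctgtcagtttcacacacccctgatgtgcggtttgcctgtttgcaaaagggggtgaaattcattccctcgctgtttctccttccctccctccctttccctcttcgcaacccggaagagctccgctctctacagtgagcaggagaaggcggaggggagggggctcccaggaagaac
MSX2 (chr5:174724332-174724581, + strand): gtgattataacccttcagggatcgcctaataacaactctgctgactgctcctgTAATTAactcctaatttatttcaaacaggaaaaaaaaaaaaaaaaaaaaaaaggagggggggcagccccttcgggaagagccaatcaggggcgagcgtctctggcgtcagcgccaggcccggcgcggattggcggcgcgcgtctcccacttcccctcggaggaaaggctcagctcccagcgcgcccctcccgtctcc
The RefSeq start used for GAD1 lies 3674 bases downstream of its annotated gene start, inside the gene. GAD1 has TATAAA 166 bases before the start, its reverse complement 179 bases before it and CACCTG 142 bases before it. GATA3, with 6 windows in the table, is shown at the window nearest the annotated gene start and has GGCGCC 226 bases before it, and MSX2 has TAATTA 197 bases before it. RefSeq windows were found for 43 of the 60 genes (65 windows). GGCGCC was found in the windows of 13 of these 43 genes (30.2%, against 19.0% of all 27305 genes with a window), CACCTG in 10 (23.3% against 20.6%), CAGCTG in 10 (23.3% against 16.7%), AGGTGT in 6 (14.0% against 11.6%), TTCAAAG in 3 (6.98% against 4.71%), TATAAA in 3 (6.98% against 13.0%), AGATAA in 2 (4.65% against 11.1%) and TAATTA in 1 (2.33% against 5.37%). These shares are per gene, and a gene with more windows has more places for a match. Per window, GGCGCC was found in 23.1% of the members' windows against 16.4% of all. AGGTGT changed direction, at 9.23% against 9.57%, and the other motifs kept theirs. The median GC content was 65.6% over the members' windows and 58.0% over all 35116 windows. These are matches of letters and no binding was measured.

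The values below are CPM in the order of replicates 1, 2 and 3, which on day 9 are the libraries of plate 2, of plate 6 and of no plate number. Transcription factors come first. MEIS1, a TALE homeodomain protein that partners HOX and PBX factors, was read at 298, 306 and 314 CPM on day 9. Earlier values were 0.625, 0.209 and 0.667 CPM on day 0 and 0.659, 0.35 and 0.29 CPM on day 4, and later ones 166, 119 and 167 CPM on day 11 and 71.5, 134 and 102 CPM on day 20. Its day 9 libraries lay within a narrow range, days 0 and 4 were low in every library, and days 11 and 20 overlapped at an intermediate level. On day 11 it was still higher than on day 4 (log2 fold change 8.32, SE 0.32, edgeR adjusted p = 8.59e-07). GATA3, a zinc-finger factor of trophectoderm, surface ectoderm and T cells that is also made in early mesoderm, was read at 73.2, 45.2 and 66.3 CPM on day 9. Days 0 and 4 gave 0.0735, 0.0598 and 0.0834 CPM and 0.0942, 0.0875 and 0 CPM, and days 11 and 20 gave 23.5, 26.2 and 13.7 CPM and 2.94, 8.23 and 7.51 CPM. Every day 11 library lay above every day 20 library, and the difference from day 4 passed the test (log2 fold change 8.22, SE 0.52, edgeR adjusted p = 7.29e-06) while that between days 20 and 11 did not (log2 fold change −1.82, SE 0.41, edgeR adjusted p = 0.0744).

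SOX17, a factor of definitive endoderm and of haemogenic and arterial endothelium, was read at 48, 18.3 and 31.1 CPM on day 9. Before this it stood at 0, 0 and 0.0834 CPM (day 0) and 0, 0.0875 and 0 CPM (day 4), and afterwards at 3.71, 6.78 and 3.15 CPM (day 11) and 5.55, 4.98 and 2.83 CPM (day 20). Days 11 and 20 overlapped, and day 11 was above day 4 (log2 fold change 7.15, SE 0.74, edgeR adjusted p = 0.000104). The endoderm markers FOXA2 and HNF4A were also present on day 9, at 37.4 to 62.7 CPM and 28.6 to 66.5 CPM. Their day 11 values were 35.0 to 56.2 CPM and 26.9 to 111 CPM. The endoderm markers APOA1 and TTR were likewise higher in every day 9 library than in any library of days 0 and 4. The endoderm marker AFP was not, at 1.97 to 2.99 CPM on day 9 against 2.68 to 8.19 CPM on day 0. It reached 30.1 to 480 CPM on day 11. MSX2, a homeodomain factor downstream of BMP signals, was read at 60.3, 30.9 and 62.3 CPM on day 9. Levels on day 0 were 0.147, 0.508 and 0.334 CPM, on day 4 0.691, 1.27 and 0.539 CPM, on day 11 17.6, 18.2 and 17 CPM and on day 20 9.23, 8.8 and 19.5 CPM. The library of plate 6 was the lowest on day 9, and day 11 values lay close together above day 4 (log2 fold change 4.36, SE 0.32, edgeR adjusted p = 1.69e-05). ALX1, a paired-type homeodomain factor of head mesenchyme, was low throughout, at 9.78, 7.03 and 14.8 CPM on day 9. It had 0.552, 0.149 and 0.334 CPM on day 0 and 0.628, 0.568 and 0.373 CPM on day 4, followed by 3.31, 1.15 and 2.55 CPM on day 11 and 0.447, 1.98 and 2.01 CPM on day 20. It was higher on day 11 than on day 4 (log2 fold change 2.09, SE 0.45, edgeR adjusted p = 0.00484). KLF15 and NR1D2, a Krüppel-like factor and a circadian repressor, were made on every day: their day 9 libraries lay at 34.2, 34.4 and 33.1 CPM and 119, 109.6 and 106 CPM, with day 4 at 18.2, 14.7 and 12.4 CPM and 69.4, 52.5 and 54.6 CPM, and neither passed the test between days 11 and 4 (edgeR adjusted p = 0.163 and 0.572).

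**Figure D2:**
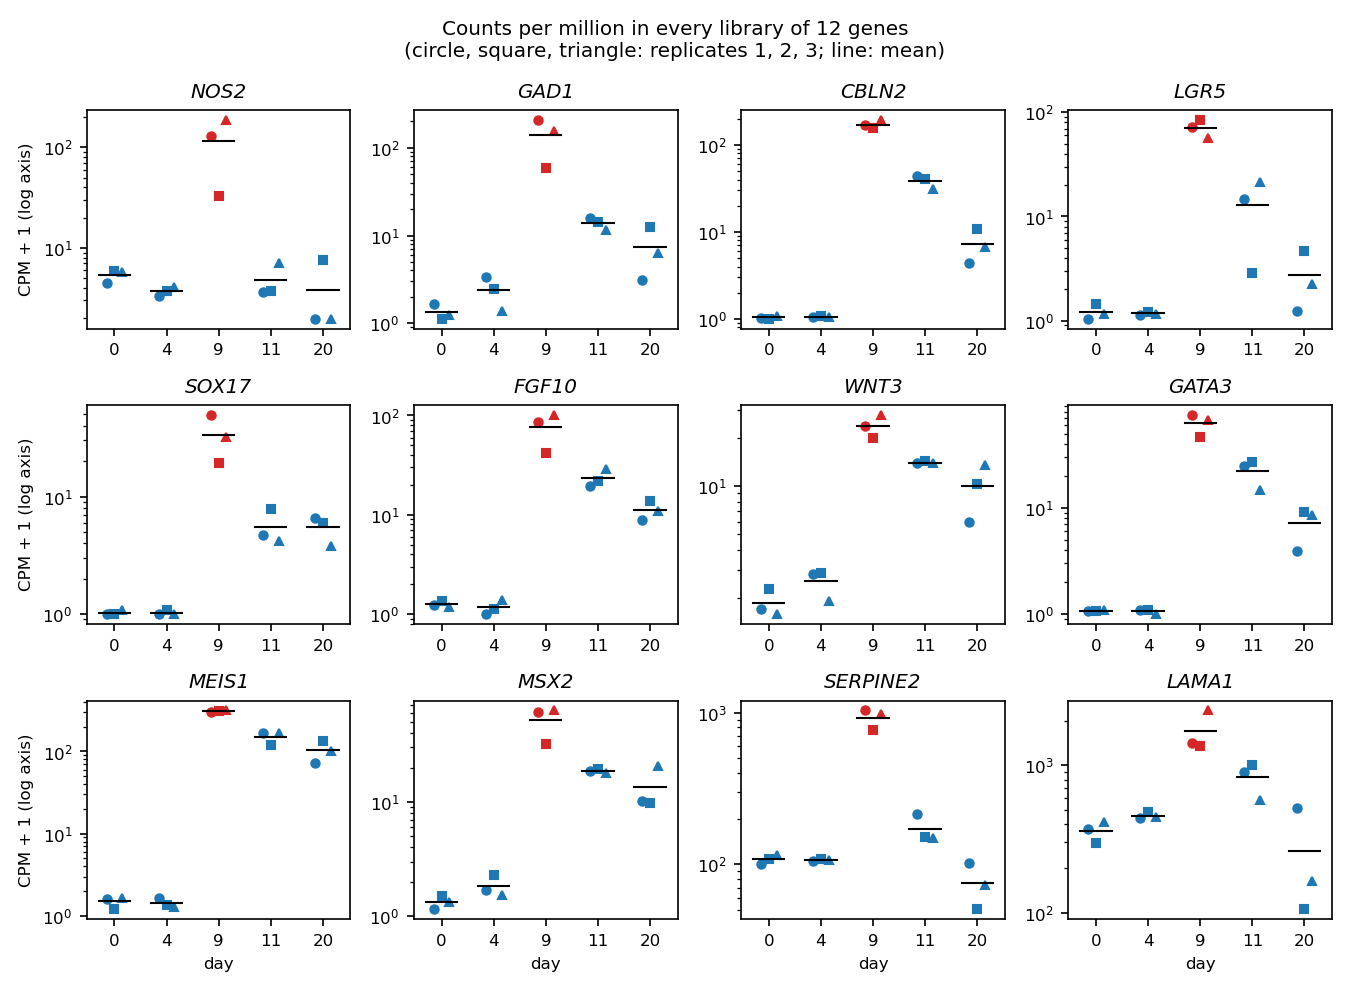
Level of 12 of the genes in every library, as CPM + 1 on a log axis, by day. Circles, squares and triangles are replicates 1, 2 and 3, red marks day 9, and the line is the mean of 3 libraries. The 3 day 9 points lie above all others in each panel by the choice of genes, and NOS2, GAD1, SOX17, FGF10 and MSX2 have their lowest day 9 point in replicate 2, the library of plate 6.

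Among secreted signals, FGF10, a ligand of FGFR2 made by the second heart field and by lung and limb mesenchyme, was read at 85.6, 41.3 and 99.3 CPM on day 9. Earlier values were 0.221, 0.359 and 0.167 CPM on day 0 and 0, 0.131 and 0.373 CPM on day 4, and later ones 18.3, 20.7 and 27.9 CPM on day 11 and 7.89, 12.7 and 9.85 CPM on day 20. All day 11 libraries lay above all day 20 libraries, and the rise over day 4 passed the test (log2 fold change 7.07, SE 0.69, edgeR adjusted p = 0.000159). WNT3, a ligand needed to start the primitive streak, was read at 22.8, 18.9 and 26.7 CPM on day 9. Days 0 and 4 gave 0.699, 1.28 and 0.584 CPM and 1.82, 1.88 and 0.911 CPM, and days 11 and 20 gave 12.9, 13.4 and 12.9 CPM and 4.95, 9.38 and 12.6 CPM. Its day 11 libraries were nearly equal and lay just above the highest day 20 library, and it was higher on day 11 than on day 4 (log2 fold change 3.02, SE 0.30, edgeR adjusted p = 8.75e-05). NTN4, a netrin of basement membranes, was read at 29.1, 12.3 and 42.8 CPM on day 9. Before this it stood at 6.66, 2.6 and 2.75 CPM (day 0) and 3.83, 5.51 and 5.14 CPM (day 4), and afterwards at 5.84, 4.04 and 5.46 CPM (day 11) and 4.88, 6.51 and 3.21 CPM (day 20). Outside day 9 its libraries overlapped on all 4 days, and the difference between days 11 and 4 did not pass the test (log2 fold change 0.04, SE 0.26, edgeR adjusted p = 0.922).

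CBLN2, a secreted protein of the C1q family that organises synapses, was read at 167, 154 and 192 CPM on day 9. Levels on day 0 were 0.0368, 0 and 0.0834 CPM, on day 4 0.0628, 0.0875 and 0.0414 CPM, on day 11 42.9, 40.1 and 30.5 CPM and on day 20 3.39, 9.95 and 5.66 CPM. It combined near absence on days 0 and 4 with a narrow day 9 range, and its days 11 and 20 did not overlap. It had the largest rise of day 11 over day 4 among the 60 genes (log2 fold change 9.05, SE 0.30, edgeR adjusted p = 7.41e-07) and fell again by day 20 (log2 fold change −2.68, SE 0.33, edgeR adjusted p = 0.0173). SERPINE2, an inhibitor of thrombin and other serine proteases, was read at 1032, 766 and 984 CPM on day 9. It had 99.9, 108 and 114 CPM on day 0 and 104, 108 and 106 CPM on day 4, followed by 214, 151 and 149 CPM on day 11 and 102, 49.8 and 72 CPM on day 20. Its libraries of days 0 and 4 lay close together, and its excess on day 11 over day 4 passed the test (log2 fold change 0.64, SE 0.16, edgeR adjusted p = 0.00953). IGFBP6, which binds insulin-like growth factors, was read at 62, 81.8 and 88 CPM on day 9. Earlier values were 15, 11.5 and 13 CPM on day 0 and 8.22, 16.4 and 14.4 CPM on day 4, and later ones 26.1, 24 and 19.3 CPM on day 11 and 6.03, 8.93 and 5.82 CPM on day 20. It was higher on day 11 than on day 4 (log2 fold change 0.78, SE 0.25, edgeR adjusted p = 0.0333) and lower on day 20 than on day 11, without overlap (log2 fold change −1.79, SE 0.26, edgeR adjusted p = 0.0244). CCBE1, which aids the processing of the lymphatic growth factor VEGFC, stood at 70.6, 110.0 and 119.8 CPM on day 9 and was higher on day 11 than on day 4 (log2 fold change 2.09, SE 0.24, edgeR adjusted p = 0.000184).

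The receptors included the R-spondin receptors LGR5 and LGR4, which raise the response to Wnt proteins. LGR5 was read at 72, 83.1 and 55.8 CPM on day 9. Days 0 and 4 gave 0.0368, 0.448 and 0.167 CPM and 0.126, 0.219 and 0.166 CPM, and days 11 and 20 gave 13.7, 1.89 and 20.3 CPM and 0.223, 3.7 and 1.25 CPM. Its day 11 libraries differed widely, with replicate 2 close to the day 20 values, and the rise over day 4 passed the test (log2 fold change 6.09, SE 0.99, edgeR adjusted p = 0.00223) whereas the difference between days 20 and 11 did not (log2 fold change −3.03, SE 1.01, edgeR adjusted p = 0.185). LGR4 was read at 1006, 1250.1 and 1523 CPM on day 9. Before this it stood at 714, 299 and 566 CPM (day 0) and 679, 642 and 582 CPM (day 4), and afterwards at 630.4, 439.8 and 698 CPM (day 11) and 350.3, 657 and 300.4 CPM (day 20). It was abundant in all 15 libraries and did not pass the test between days 11 and 4 (log2 fold change −0.15, SE 0.21, edgeR adjusted p = 0.57). Its gene lies 2727 bases from that of CCDC34 on chromosome 11, which is also a member and had 190.5, 181 and 161 CPM on day 9. Levels on day 0 were 24.6, 25.9 and 30.3 CPM, on day 4 24.9, 21.5 and 26.2 CPM, on day 11 75.3, 33 and 78.1 CPM and on day 20 24.6, 63.1 and 22.1 CPM. CCDC34, a coiled-coil protein, was higher on day 11 than on day 4 (log2 fold change 1.31, SE 0.32, edgeR adjusted p = 0.0103), with replicate 2 of day 11 closest to the day 4 values. BOC, a co-receptor for Hedgehog proteins, had 159.5, 162 and 260.0 CPM on day 9 and was higher on day 11 than on day 4 (log2 fold change 1.69, SE 0.38, edgeR adjusted p = 0.00907), and so was CCKBR, a gastrin receptor, with 82.4, 29 and 114 CPM on day 9 (log2 fold change 1.35, SE 0.32, edgeR adjusted p = 0.00768).

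Enzymes made up 13 of the 60 genes, including both highest ranks. NOS2 (chromosome 17, 27756766 to 27800529, minus strand), the inducible nitric oxide synthase, was read at 128, 31.7 and 185 CPM on day 9. It had 3.46, 4.84 and 4.75 CPM on day 0 and 2.35, 2.71 and 3.07 CPM on day 4, followed by 2.67, 2.74 and 6.06 CPM on day 11 and 0.968, 6.57 and 0.979 CPM on day 20. Its day 9 libraries differed by 5.84 times between plate 6 and the library with no plate number, and its day 11 libraries lay near those of days 0 and 4: the difference from day 4 did not pass the test (log2 fold change 0.47, SE 0.39, edgeR adjusted p = 0.348). GAD1 (chromosome 2, 170813213 to 170861151, plus strand), which makes the transmitter GABA from glutamate, was read at 205, 57.1 and 155 CPM on day 9. Earlier values were 0.662, 0.12 and 0.25 CPM on day 0 and 2.35, 1.44 and 0.373 CPM on day 4, and later ones 15, 13.3 and 10.4 CPM on day 11 and 2.12, 11.5 and 5.33 CPM on day 20. The library of plate 6 was again the lowest on day 9, yet well above the 12 others, and day 11 kept an excess over day 4 (log2 fold change 3.13, SE 0.53, edgeR adjusted p = 0.00198). DIO2, which converts thyroxine into the active thyroid hormone, was read at 30.2, 18 and 28.2 CPM on day 9. Days 0 and 4 gave 0.257, 0.448 and 0.0834 CPM and 0.377, 0.306 and 0.414 CPM, and days 11 and 20 gave 2.49, 1.64 and 6.79 CPM and 0.112, 8.17 and 0.87 CPM. It was higher on day 11 than on day 4 (log2 fold change 3.28, SE 0.60, edgeR adjusted p = 0.00245), and replicate 2 of day 20 exceeded all day 11 libraries.

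ST8SIA2 and ST8SIA1 transfer sialic acid, the former onto the neural adhesion molecule NCAM and the latter onto gangliosides. ST8SIA2 was read at 40.0, 24.2 and 79.4 CPM on day 9. Before this it stood at 4.01, 4.36 and 6.34 CPM (day 0) and 3.7, 3.41 and 3.77 CPM (day 4), and afterwards at 7.74, 6.68 and 6.23 CPM (day 11) and 2.72, 10.5 and 2.07 CPM (day 20). Its day 9 libraries spread more than its other days, and the day 11 excess over day 4 was small (log2 fold change 0.87, SE 0.22, edgeR adjusted p = 0.0104). ST8SIA1, at 66.8, 56.9 and 73.3 CPM on day 9, kept more of its level and rose further over day 4 (log2 fold change 4.64, SE 0.31, edgeR adjusted p = 9.99e-06). CA2, a carbonic anhydrase with 83.3, 67.7 and 66.5 CPM on day 9, PTPN13, a tyrosine phosphatase with 989, 983 and 1109 CPM, and PRXL2A, a peroxiredoxin-like protein with 243, 216 and 235 CPM, were also higher on day 11 than on day 4 (log2 fold changes 2.64, 1.20 and 1.12, edgeR adjusted p = 3.2e-05, 0.000995 and 0.000187). PTGIS (prostacyclin synthase), ALAS2 (the erythroid enzyme of haem synthesis), CRYM (which binds thyroid hormone), GLYATL1 and SACM1L did not pass that test, with log2 fold changes between −0.44 and 0.98.

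Matrix and adhesion genes formed a group of 8. COL9A2, a chain of the cartilage collagen type IX, was read at 244, 169 and 368 CPM on day 9. Levels on day 0 were 11.6, 2.33 and 10.5 CPM, on day 4 18.1, 27.4 and 12.8 CPM, on day 11 50.9, 64 and 72.3 CPM and on day 20 16.8, 10.3 and 6.53 CPM. Days 11 and 20 did not overlap, day 11 was higher than day 4 (log2 fold change 1.64, SE 0.29, edgeR adjusted p = 0.002) and day 20 was lower than day 11 (log2 fold change −2.48, SE 0.42, edgeR adjusted p = 0.0371). ELN, the elastic fibre protein elastin, was read at 32.5, 23.6 and 37.5 CPM on day 9. It had 9.85, 8.07 and 11 CPM on day 0 and 8.51, 8.57 and 13.6 CPM on day 4, followed by 5.57, 4.98 and 4.37 CPM on day 11 and 0.67, 13 and 3.75 CPM on day 20. Its day 11 libraries all lay below those of day 4, and it was the only one of the 60 genes to be lower on day 11 than on day 4 in edgeR (log2 fold change −1.10, SE 0.25, edgeR adjusted p = 0.00694). PCDH10, a protocadherin, was read at 239.5, 64.5 and 348 CPM on day 9. Earlier values were 23.7, 8.57 and 21 CPM on day 0 and 34.1, 30.1 and 27.3 CPM on day 4, and later ones 30.5, 29.2 and 18.8 CPM on day 11 and 8.82, 18.8 and 15.1 CPM on day 20. It did not pass the test between days 11 and 4 (log2 fold change −0.29, SE 0.19, edgeR adjusted p = 0.253), and its day 9 libraries differed by 5.39 times. JCAD, a protein of endothelial cell junctions, was read at 520.8, 336 and 549 CPM on day 9. Days 0 and 4 gave 7.5, 5.92 and 8.67 CPM and 11, 8.79 and 8.45 CPM, and days 11 and 20 gave 155, 95.4 and 154 CPM and 44.4, 37 and 51.5 CPM. Every day 11 library lay far above those of days 0 and 4 (log2 fold change 3.79, SE 0.24, edgeR adjusted p = 8e-06). LAMA1, the laminin chain of the first embryonic basement membranes, had the highest CPM of the 60 on day 9, at 1415, 1347 and 2358 CPM, and was higher on day 11 than on day 4 (log2 fold change 0.81, SE 0.20, edgeR adjusted p = 0.00964), as were LRRC4 and SMAGP (log2 fold changes 1.29 and 0.96), while CDH24 did not pass (0.07).

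Of the 8 genes for G proteins, small GTPases and transport in the cell, DENND2C, an exchange factor for Rab GTPases, was read at 86, 70.9 and 70.1 CPM on day 9. Before this it stood at 16.3, 14.4 and 12.3 CPM (day 0) and 13.4, 13.5 and 16.4 CPM (day 4), and afterwards at 22.1, 8.77 and 25.3 CPM (day 11) and 12.4, 18.3 and 14.8 CPM (day 20). Its day 11 libraries overlapped those of days 0 and 4, and the test did not separate days 11 and 4 (log2 fold change 0.33, SE 0.36, edgeR adjusted p = 0.485). RUBCNL, a regulator of autophagy, was read at 66.2, 61.5 and 77.8 CPM on day 9. Levels on day 0 were 4.34, 6.75 and 5.25 CPM, on day 4 3.8, 2.89 and 5.14 CPM, on day 11 32.9, 30.8 and 24.5 CPM and on day 20 2.05, 8.29 and 2.23 CPM. Its 3 day 11 libraries lay between days 9 and 4, which passed the test against day 4 (log2 fold change 2.84, SE 0.24, edgeR adjusted p = 3.7e-05), and day 20 was lower without overlap (log2 fold change −2.98, SE 0.45, edgeR adjusted p = 0.0282). PREX1, an exchange factor for Rac with 461, 148 and 446 CPM on day 9, was likewise higher on day 11 than on day 4 (log2 fold change 1.24, SE 0.17, edgeR adjusted p = 0.000405) and lower on day 20 than on day 11 (log2 fold change −1.43, SE 0.27, edgeR adjusted p = 0.0488). The dynein chain DYNC1I1 and the arrestin-domain protein ARRDC3 were higher on day 11 than on day 4 (log2 fold changes 3.63 and 1.12), and GNAL and NPC2 did not pass (0.09 and 0.31). Of the remaining genes, FAM89A stood at 91.9, 97 and 95.6 CPM and TMEM185A at 154, 166 and 186 CPM on day 9 with little spread, and both were higher on day 11 than on day 4 (log2 fold change 5.92, SE 0.38, edgeR adjusted p = 1.02e-05, and log2 fold change 2.47, SE 0.16, edgeR adjusted p = 8.16e-06) and lower on day 20 than on day 11 (log2 fold change −2.47, SE 0.43, edgeR adjusted p = 0.039, and log2 fold change −1.67, SE 0.28, edgeR adjusted p = 0.0338). The sodium-coupled sugar transporter SLC5A9 and FYB2, with day 9 libraries at 37, 20.3 and 27.2 CPM and 49.4, 52.6 and 33.9 CPM, were higher on day 11 than on day 4 (log2 fold changes 4.90 and 3.00), as were NSMCE3 (1.07), KHDRBS3 (0.76) and TRIM17 (0.93), and HHIPL2, ITLN2, SYNDIG1L, ZCRB1 and KCNG1 did not pass (1.02, −0.08, 0.74, −0.16 and −0.04).

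Levels of different genes can be set side by side only per length. In TPM, the length-scaled unit of the second deposited table, LGR4 was the highest of the 60 on day 9, with 725 ± 188 TPM (SD, n = 3). PTPN13 (392 ± 46.2 TPM), LAMA1 (391 ± 141 TPM) and SERPINE2 (375 ± 40.4 TPM) followed and did not differ from each other beyond their spread. The lowest were DIO2 (12.2 ± 2.58 TPM) and HHIPL2 (11.6 ± 8.33 TPM).

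Day 11 against day 4 was tested across 21187 genes to ask how these genes stood 2 days later, relative to the time before day 9. All 60 genes were tested, of which 38 were higher on day 11 (63.3%) and 1, ELN, was lower, where 23.1% of all genes tested were higher and 23.8% were lower. Their median log2 fold change was 1.09, against 0.04 over all genes tested, and 51 of the 60 were positive. By role, 5 of 7 transcription factors, 6 of 7 secreted signals, 3 of 4 receptors, 5 of 8 matrix and adhesion genes and 7 of 13 enzymes were higher. The choice of genes required days 11 and 4 to lie below day 9 and set no order between them. Genes almost absent on day 4, however, had little room to be lower on day 11. Of the genes under 1 CPM on days 0 and 4, 10 of 11 were higher, of the middle set 10 of 14 and of the third 18 of 35. Among 12347 genes of at least 5 CPM on day 9, 34.3% had every day 11 library above every day 4 library and 28.0% below. Of the 60 genes 41 lay above and 2 below in this way. The count of 38 stayed between 31 and 40 in every other fit. Those fits called 7843 to 11445 of all genes, higher or lower, against 9930 in the main fit.

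**Figure D3:**
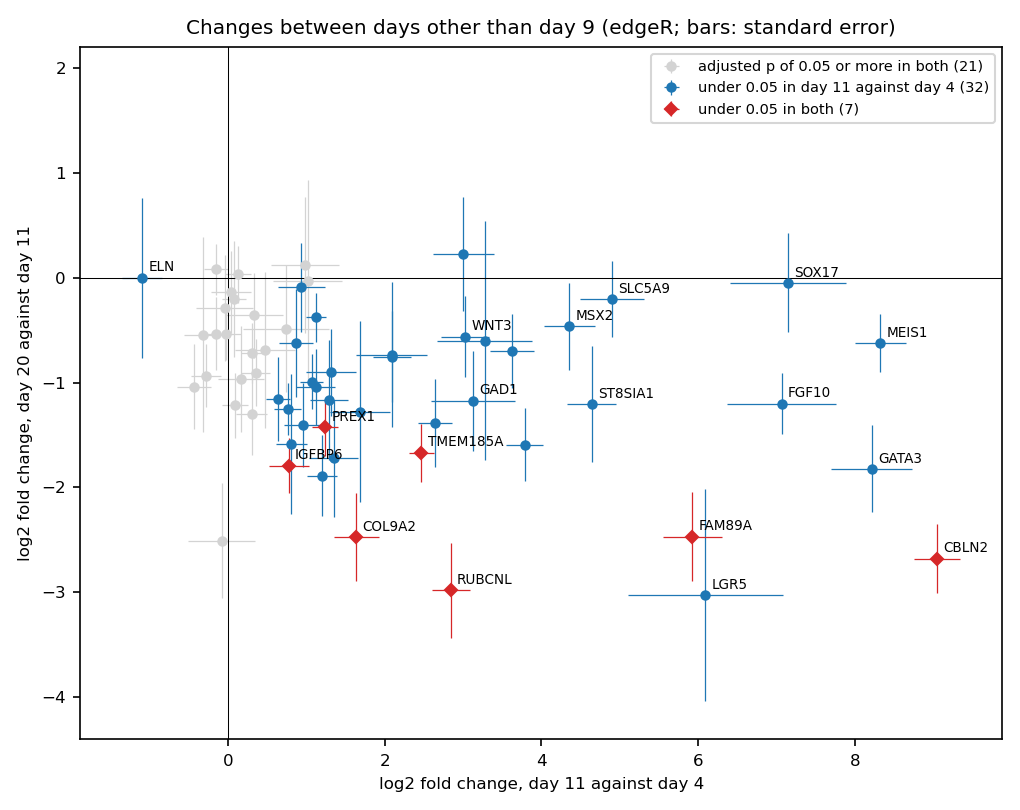
Log2 fold changes of the 60 genes between days that exclude day 9, with day 11 against day 4 on the horizontal axis and day 20 against day 11 on the vertical axis. Each point is a gene, bars are standard errors, and colours mark edgeR adjusted p under 0.05. Most points lie right of and below 0, with CBLN2, MEIS1 and GATA3 farthest right, and ELN the only coloured point on the left.

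Day 4 against day 0 asked whether any of these genes moved earlier. None of the 54 genes tested passed the threshold in edgeR, where 0.0% of 20964 genes tested were higher and 0.0% were lower. At an unadjusted p under 0.05 there were 7 of these genes and 741 of all genes, and DESeq2 also called none. Their log2 fold changes lay between −0.79 and 2.03, the highest being that of GAD1, which had 0.662, 0.12 and 0.25 CPM on day 0 and 2.35, 1.44 and 0.373 CPM on day 4. The other 6 genes were too low on both days to be tested.

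Day 20 against day 11 asked what followed. Of the 60 genes 7 were lower on day 20 (11.7%) and 0 higher, where 0.435% of 21398 genes tested were lower and 1.12% were higher. The 7 were CBLN2, COL9A2, IGFBP6, RUBCNL, FAM89A, PREX1 and TMEM185A. In all of them the 3 day 20 libraries lay below the 3 day 11 libraries. Of the 60 genes 30 lay below in this way. Among 12347 genes of at least 5 CPM on day 9, 14.98% had every day 20 library below every day 11 library and 8.34% above. The median log2 fold change was −0.92, against 0.07 over all genes tested, 55 of the 60 were negative, and 28 had an unadjusted p under 0.05, as had 3564 of all 21398 genes tested. This count changed with the fit. None of the 60 was lower once any 1 of the 3 day 11 libraries was left out. Of all genes tested, those fits called 0, 1 and 0 without replicates 1, 2 and 3 of day 11, so nearly all calls of the contrast were lost. Of the 60 genes 2 were lower without replicate 1 of day 20 and none with the plate as a block, where 94 and 3 of all genes were called. DESeq2 called 20 of the 60 lower and a fit of all 15 libraries 24. Those fits called 1864 and 3132 of all genes, higher or lower, against 332 in the main fit, so calls rose over all genes too. DESeq2 called 0 of the 60 higher.

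The contrasts that the choice used are given as description. By the choice all 60 genes lay higher on day 9 than on day 4, with a median log2 fold change of 2.83. From day 9 to day 11 all 60 moved down, with a median of −1.42. The smallest falls were those of ARRDC3 (−0.51) and SMAGP (−0.52). Calls in these contrasts are left out for the 60 genes, because the choice fixed their direction. Over all genes, 24.3% of 21252 tested were called higher on day 9 than on day 4 and 24.7% lower. From day 9 to day 11, 1.0% of 20679 tested were called lower and 1.39% higher.

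The 3 day 9 libraries also differed among themselves. The median ratio of the highest to the lowest day 9 library was 1.502 over the 60 genes and 1.28 over the eligible genes. In 16 genes it was at least 2, and in 15 of these the library of plate 6 was the lowest. That library was the lowest for 36 of the 60 genes and for 29.7% of the eligible genes, and the library with no plate number for 13 of the 60 and for 52.9% of the eligible genes. NOS2, GAD1, PCDH10, NTN4, PREX1 and CCKBR were among those lowest in plate 6. In 19 genes the day 9 libraries stayed close together (highest over lowest under 5/4), among them CBLN2, MEIS1, FAM89A and KLF15.

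**Figure D4:**
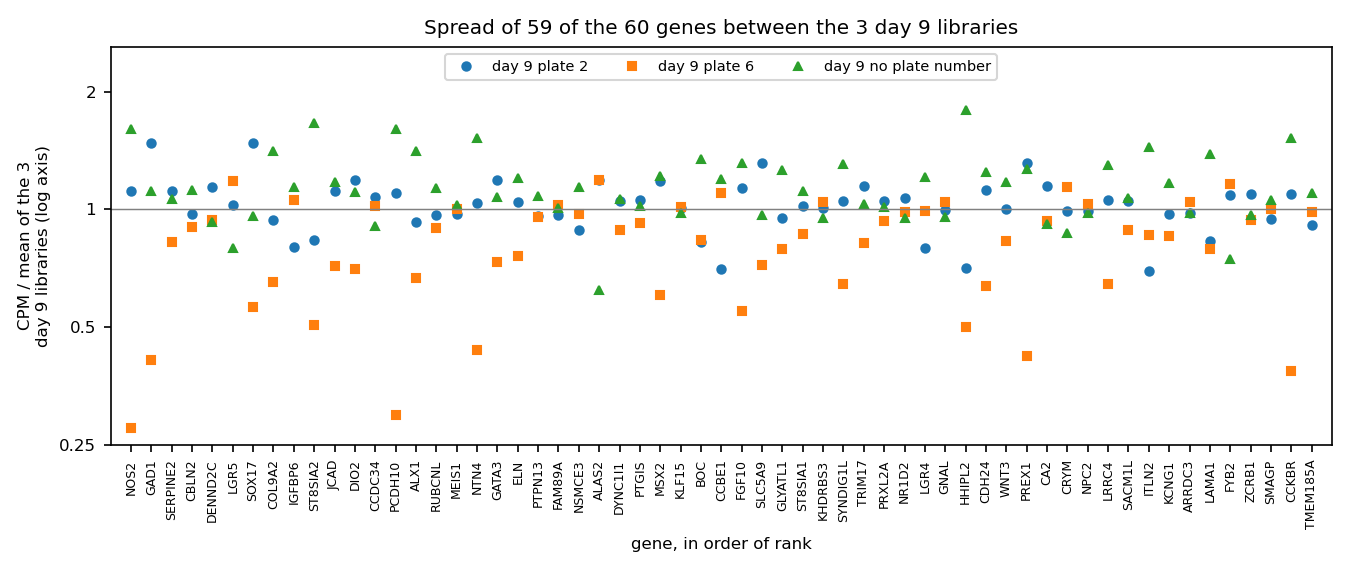
CPM of each day 9 library relative to the mean of the 3 day 9 libraries, on a log axis, for 59 of the genes in order of rank. Circles are plate 2, squares plate 6 and triangles the library with no plate number. Squares reach farthest below 1, at NOS2, PCDH10, CCKBR and GAD1, while for genes such as MEIS1 and FAM89A the symbols coincide.

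Markers of other cell types also differed between the 3 day 9 libraries, though not all in the same direction. The summed level of 6 fibroblast and epicardial markers was 3227 CPM in the day 9 library of plate 6, against 1556 and 1544 CPM in the other two, and that of 6 cardiomyocyte markers was 1061 CPM against 520 and 254 CPM. Of the fibroblast and epicardial markers, LUM stood at 418 CPM there, against 42.6 and 6.69 CPM, and COL3A1 at 1500 CPM, against 229 and 39.4 CPM. DCN and WT1 were also highest there. COL1A1 (1287 CPM there, against 1275 and 1489 CPM) and TCF21 (7.60 CPM, against 8.98 and 8.72 CPM) were not. The 6 endothelial markers summed to 810 CPM there, against 731 and 1286 CPM, and the 6 endoderm markers to 526 CPM, against 323 and 234 CPM. No marker of these 4 lists was at 0 in any day 9 library, while of 5 neural and surface ectoderm markers between 1 and 3 were at 0 and their sum was at most 21.6 CPM. The library of plate 2 had the lowest RNA integrity number of day 9, at 8.9, and the 3 libraries were sequenced in different lanes. The part of cell makeup, RNA quality and lane in the spread was not tested. Left without the library of plate 6, the same ranking chose only 28 of the 60 genes again, against 57 without plate 2 and 47 without the library that has no plate number. Under all 20 other ways of ranking 24 genes were always chosen, including NOS2, GAD1, SERPINE2, CBLN2, LGR5, SOX17, GATA3, MSX2 and FGF10 but not MEIS1, WNT3 or LGR4.

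The next highest day after day 9 was mostly day 11: its libraries held the highest other value for 43 genes, those of day 20 for 10, of day 4 for 4 and of day 0 for 3. On day 20, 53 of the 60 genes had a lower mean than on day 11, against 55.5% of the eligible genes. The members lay on 18 chromosomes, with the pairs CCDC34 and LGR4, and SYNDIG1L and NPC2 (49982 bases apart on chromosome 14), as the closest neighbours. Their median exon length was 5307 bases, against 5719.5 for the eligible genes. Exons of 28 of the 60 genes (46.7%, against 51.8% of the eligible genes) overlap another annotated gene, on the other strand in 23. Whether reads were counted by strand is not stated, so the values of these 23 are uncertain to that extent. The other gene is APEX2 for ALAS2, MAPK10 for PTPN13, CFAP44 for BOC, MPPE1 for GNAL, DAZAP2 for SMAGP, PPHLN1 for ZCRB1, ISCA2 for NPC2 and LIMD1-AS1 for SACM1L. DIO2, MEIS1, ELN, FGF10, LGR4 and ARRDC3 overlap antisense genes named after them, and GAD1, LGR5, CCBE1, SLC5A9, TRIM17, PREX1, ITLN2, KCNG1 and LAMA1 overlap genes without a symbol. Another gene on the same strand overlaps the exons of 8 members: NOS2, RUBCNL, FAM89A, GLYATL1, ST8SIA1, NPC2, SACM1L and ZCRB1.

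Only 9 of the 60 genes belonged to the 16 lists of developmental pathways and markers used here, namely LGR5, LGR4 and WNT3 (Wnt), MEIS1 and MSX2 (cardiac mesoderm factors), FGF10 (FGF), NTN4 (axon guidance), SOX17 (endoderm and endothelium) and GATA3 (ectoderm). Among the other genes of these lists, 197 were higher and 82 lower on day 9 than on day 4, and 31 were higher and 13 lower on day 11 than on day 9. Of all genes tested, 24.3% were higher and 24.7% lower on day 9 than on day 4. Towards day 11, 1.39% of all genes tested were higher and 1.0% lower. At shares this low, a list with none past the threshold is not a result about that list. In the Wnt list, 20 of 42 tested were higher on day 9 than on day 4 and 12 lower: the R-spondin RSPO3, a ligand of LGR4 and LGR5, had a log2 fold change of 6.56 (SE 0.39, adjusted p = 7.97e-06), the Wnt effector LEF1 6.20 (SE 0.23, adjusted p = 1.06e-06), and the antagonists SFRP2 −4.07 (SE 0.40, adjusted p = 0.000168) and WIF1 −4.01 (SE 0.40, adjusted p = 9.86e-05). By day 11, 5 of 41 were higher and 2 lower, with WNT2 at 6.47 (SE 0.66, adjusted p = 0.0141), DKK1 at 2.39 (SE 0.41, adjusted p = 0.033), WNT8A at −3.52 (SE 0.66, adjusted p = 0.0432) and SFRP2 at −2.56 (SE 0.38, adjusted p = 0.0228).

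Of the 30 cardiac mesoderm factors tested besides MEIS1 and MSX2, 27 were higher on day 9 than on day 4, led by HAND2 (10.37 (SE 0.45, adjusted p = 4.27e-06)) and GATA4 (9.78 (SE 0.34, adjusted p = 9.51e-07)), and 1, IRX4, was lower. None of the 30 was lower on day 11 than on day 9, and NKX2-5 (3.79 (SE 0.65, adjusted p = 0.0346)) and MEF2C (2.17 (SE 0.35, adjusted p = 0.0287)) were higher. In the FGF list, 9 of 25 besides FGF10 were higher on day 9 than on day 4 and 8 lower, with the feedback genes DUSP6 (4.86 (SE 0.49, adjusted p = 0.000192)) and SPRY2 (2.82 (SE 0.26, adjusted p = 0.000116)) up and FGF4 (−4.48 (SE 0.25, adjusted p = 5.84e-06)) and FGF2 (−3.04 (SE 0.21, adjusted p = 2e-05)) down. On day 11 FGF8 (3.65 (SE 0.71, adjusted p = 0.049)) and ETV1 (1.43 (SE 0.17, adjusted p = 0.0147)) were higher than on day 9, and the receptors FGFR4 (−1.25 (SE 0.23, adjusted p = 0.0377)) and FGFR1 (−1.17 (SE 0.20, adjusted p = 0.0327)) lower.

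In the other lists the counts were as follows for day 9 against day 4 and then day 11 against day 9. Of the BMP, Nodal and TGF-beta genes 23 of 42 were higher and 8 lower, then 2 of 41 higher and 1 lower. Of the primitive streak genes 10 of 14 were higher and 1 lower, then 0 of 13 higher and 1, EOMES (−3.58 (SE 0.61, adjusted p = 0.033)), lower. EOMES, a T-box factor that starts mesoderm and endoderm, was thus the only gene of this list to pass the test towards day 11.

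Of the Notch genes 7 of 21 were higher and 6 lower, then none of 21 passed. Of the retinoic acid genes 8 of 18 were higher and 4 lower, then 2 of 19 higher and 1, CYP26A1 (−3.31 (SE 0.43, adjusted p = 0.0173)), lower. The axon guidance genes other than NTN4 had 19 of 42 higher and 14 lower, then 2 of 43 higher.

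Matrix and adhesion genes had 27 of 48 higher and 9 lower, then none of 49 passed. Endothelial and blood markers other than SOX17 had 13 of 22 higher and 5 lower, then none of 24 passed, and endoderm markers had 12 of 17 higher, then 1, AFP (6.73 (SE 1.05, adjusted p = 0.0276)), higher. The anterior HOX genes had 8 of 8 higher, led by HOXB1, and none of 11 passed to day 11.

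Cardiomyocyte genes had 12 of 20 higher on day 9 and 13 of 22 higher again on day 11, led by MYH6 (8.09 (SE 0.87, adjusted p = 0.0147)) and MYBPC3 (7.67 (SE 0.86, adjusted p = 0.0147)). Smooth muscle, fibroblast and epicardial markers had 10 of 14 higher and 2 lower, then 2 of 16 higher. Pluripotency markers had 13 of 14 lower and then 7 of 13 lower, with POU5F1 at −3.36 (SE 0.32, adjusted p = 0.0126), and of 5 ectoderm markers tested besides GATA3 2 were higher, including TFAP2A (1.86 (SE 0.58, adjusted p = 0.0315)), and 2 lower, then none of 7 passed. Pluripotency markers past the threshold were lower at both steps and cardiomyocyte genes past it were higher at both.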

How the data were processed

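Total RNA of H1 cells was sequenced as stranded paired-end libraries (TruSeq, ribosomal RNA removed), and each sample's day was read from its label. The authors aligned reads to GRCh38 with STAR 2.5.2b, left out ribosomal and mitochondrial genes, and deposited unnormalized gene counts made with featureCounts 1.5.1. Whether the counting used strand is not stated in the sources used here. The authors also deposited TPM, and a sample table with a score of RNA integrity, the share of uniquely mapped reads, a fraction, and the lane. Library totals of 11990302 to 33469703 counts set the counting error of each value, and a gene at 0 counts in the smallest library may still be present below its detection limit.

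CPM were computed from the counts and the column totals. Biotypes, coordinates and exon overlaps come from GENCODE v44, in which 46872 of the 48777 genes were found. Sequences come from RefSeq tables of GRCh38.p14. The 6 libraries of each pair of days entered a fit of edgeR 4.0.16 (R 4.3.3, TMM scaling, genes kept by filterByExpr at a count of at least 10 and a total of at least 15, quasi-likelihood test, two-sided). Benjamini-Hochberg adjustment ran over all tested genes, with a threshold of 0.05. Standard errors (SE) were derived from the log2 fold change and edgeR's F statistic. The fits were tested on simulated data.

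The members and lists were chosen with earlier results of these data known. Named are the members, with values in every library for the first 20 ranks and those in a list, at most 4 further genes of a list (the 2 largest rises and falls past the threshold), ranks 61 to 65 and the 5 highest genes of other biotypes. The roles by which members are grouped were assigned after their values were seen. Markers besides these, such as FOXA2, HNF4A and LUM, are from the marker lists. Alternatives were DESeq2 1.42.0, no filter, all 15 libraries in one fit, the plate number as a replicate block, each library left out in turn and, for the ranking, TMM-scaled CPM, TPM, pseudocounts of 0.1 and 5 and a minimum of 10 CPM. A block for the sequencing lane was chosen after seeing the data. The single-cell libraries were not analysed here, and the values of 1 member are not reported here, though it is part of all counts.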

Additional observations from a re-analysis of the deposited data

How the results depend on the processing

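The ranking chose 50 of the 60 genes again on TMM-scaled CPM, 52 on TPM, 59 and 57 with pseudocounts of 0.1 and 5, and 28 to 60 when 1 library was left out, with 28 without the day 9 library of plate 6. From day 4 to day 11, 31 to 40 genes were higher in every fit, and with the plate number as a replicate block 39 were. The number lower, 1, became 0 in the fit of 15 libraries and 1 to 2 when a library was left out. All genes called from day 4 to day 11 numbered 7843 to 11445 under the alternatives, against 9930. Without a filter 2 genes were higher on day 4 than on day 0, where 64 of all genes were called. For day 20 against day 11, the 7 lower became 24 in the fit of 15 libraries, 20 with DESeq2, 2 with the lane as a block, 0 with the plate as a replicate block and 0 to 7 when a library was left out. All genes called in that contrast numbered 332, against 3132, 1864, 137 and 3 under the first 4 of these.

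For list genes outside the members from day 9 to day 11, the 31 higher became 65 with DESeq2, 86 with the plate as a replicate block and 0 to 34 when a library was left out. The 13 lower became 5 in the fit of 15 libraries, 41 with DESeq2, 23 with the lane as a block, 20 without a filter, 55 with the replicate block and 0 to 24 when a library was left out. Both counts were 0 without the day 9 library of plate 2, where 0 of all genes were called. With another library left out, between 37 and 573 of all genes were called. All genes called numbered 495, against 1671 with DESeq2, 1016 without a filter and 1971 with the replicate block, and from day 4 to day 9 they numbered 10406, against 6209 in the fit of 15 libraries. The cause of these shifts was not tested.

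Days 4 and 11, 11 and 20, and 9 and 11 shared 2 plate numbers each, so the block compares few pairs, days 4 and 9 shared only 1 and day 0 has none. Deviations of libraries from their day's mean were correlated across genes. For days 4 and 11 same-plate r was −0.15 and 0.08, and other pairs lay between −0.09 and 0.12. For days 11 and 20 it was −0.17, −0.06 and 0.40 (2 libraries of day 20 share a plate number), and other pairs lay between −0.49 and 0.25. For days 9 and 11 it was 0.19 and 0.41, and other pairs lay between −0.43 and 0.39. The pair at 0.41 also shared a lane. The highest r was that of a same-plate pair for days 11 and 20 and days 9 and 11, but not for days 4 and 11. Whether the numbers pair the samples stayed undecided, and the main fits left pairing out. Members past the threshold from day 4 to day 11 or from day 11 to day 20 were followed through the alternatives, and none of their log2 fold changes changed sign. Counting each gene in each alternative fit, 442 values stayed past the threshold and 64 did not. Members that missed the threshold and the named list genes were not followed in this way. With 3 libraries per day, differences smaller than the spread between them could not be detected, and genes under a few CPM on days 0 and 4 could not be tested there.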

Other observations

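The same ranking was applied to genes that are not annotated as protein-coding. Of 700 that reached a day 9 mean of 5 CPM, 36 had every day 9 library above the 12 others. The 5 highest were GLRA4, a unitary pseudogene of a glycine receptor subunit, with 6.21, 5.32 and 6.1 CPM on day 9 and 0.534, 0.831 and 0.414 CPM on day 4, LINC01356, ENSG00000274979, GATA3-AS1 and ACVR2B-AS1. LINC01356 was read at 110.4, 44.9 and 56.8 CPM on day 9, at 16.1, 14.3 and 11 CPM on day 4 and at 9.19, 2.69 and 8.97 CPM on day 11. GATA3-AS1, which lies within the span of GATA3 on the other strand without overlapping its exons, was read at 6.83, 6.94 and 7.92 CPM on day 9, at 0, 0.0875 and 0.0829 CPM on day 4, at 2.04, 2.14 and 1.29 CPM on day 11 and at 0.112, 4.08 and 0.816 CPM on day 20. GLRA4, LINC01356 and GATA3-AS1 have exons that overlap a gene on the other strand (TMEM31, LINC01357 and ENSG00000232638), and if strand was not used in the counting, their reads cannot be told apart. ACVR2B-AS1 had a smaller excess, with 16.1, 14.6 and 15.5 CPM on day 9 and 10.3, 9.72 and 9.62 CPM on day 11.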
